A study of Mus musculus with 12 samples.

Results

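The genes described here, Selplg, Cd44, Icam1, Icam2 and Pecam1, encode 5 adhesion molecules of the T cell surface. Their probe sets were those of the deposited table that the annotation of the array, an Affymetrix mouse whole-genome design, assigns to one of these symbols alone. This gave 8 probe sets of 45037, and 5 genes of the 18193 that had a probe set of their own. Selplg, Icam1, Icam2 and Pecam1 had 1 probe set each and Cd44 had 4. Where a gene had several, the brightest on average stood for it, and the other probe sets of Cd44 are given beside it.

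The levels come from 12 arrays of CD4 single positive (CD4 SP) thymocytes, the late T cells of the thymus, with 3 biological replicates for each of 4 subsets that follow one another in maturation. All cells came from untreated C57BL/6 mice aged 6 to 8 weeks. SP1 cells were Qa-2-6C10+CD69+, SP2 cells Qa-2-6C10-CD69+, SP3 cells Qa-2-6C10-CD69- and SP4 cells Qa-2+6C10-CD69-. CD8+ cells were depleted and CD25+ and NK1.1+ cells were gated out in all 4 subsets. CD44-high cells were not gated out for the arrays, so mature T cells that had returned from the periphery could fall in the Qa-2+ gate of SP4. The 3 replicates of a subset were independent preparations, and thymi were pooled, so an array does not stand for 1 mouse. Each value is a linear probe set intensity, already normalized by the authors, and array medians lay between 30.5 and 32.8. T cell identity genes such as Cd3e, Cd4 and Zap70 had mean intensities over 100 in every subset for 8 of 8 measured markers, and none was called between SP4 and SP1 or between SP4 and SP3.

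PSGL-1, the product of Selplg, is a mucin-like protein that binds selectins once its sugars and tyrosines are modified, and in mice it takes part in the entry of progenitors into the thymus. CD44 binds hyaluronan of the extracellular matrix and is carried at high levels by activated and memory T cells. ICAM-1 and ICAM-2 are immunoglobulin superfamily ligands of the integrin LFA-1. ICAM-1 is induced by inflammatory signals, while ICAM-2 is known as the more constant form on endothelium and resting lymphocytes. PECAM-1, also called CD31, binds itself on a neighbouring cell and carries inhibitory motifs in its cytoplasmic tail.

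RefSeq promoter windows were at hand for 2 of the 5 genes, Cd44 and Icam1. Availability alone set this pair. Cd44 had the largest difference between subsets of the 5 genes. Icam1, known as a target of NF-κB, passed the test in no comparison, as was so for Icam2 and Pecam1. Whether the matches below relate to the levels was not tested. Each window holds the 240 bases from 250 to 11 bases before the start site, 5′ to 3′ on the strand of the gene, in build GRCm38.p6. Cd44 is on the minus strand at chr2:102901676-102901915 and Icam1 on the plus strand at chr9:21015690-21015929. Capitals mark matches on either strand to GGAAATTCC (an NF-κB type site), CACCC (the core bound by KLF factors) and GGAAG (an Ets core).
Cd44: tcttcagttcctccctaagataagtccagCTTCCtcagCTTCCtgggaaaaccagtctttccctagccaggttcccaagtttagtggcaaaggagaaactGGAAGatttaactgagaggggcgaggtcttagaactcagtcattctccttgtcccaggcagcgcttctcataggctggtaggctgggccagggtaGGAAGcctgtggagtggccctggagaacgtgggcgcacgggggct
Icam1: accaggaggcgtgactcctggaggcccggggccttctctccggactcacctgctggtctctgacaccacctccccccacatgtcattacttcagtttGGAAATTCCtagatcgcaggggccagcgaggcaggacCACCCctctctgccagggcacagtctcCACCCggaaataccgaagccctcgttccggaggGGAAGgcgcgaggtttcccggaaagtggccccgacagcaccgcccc
The Cd44 window held 4 Ets cores, at 221 to 217 and 212 to 208 bases before the start as the reverse complement, and at 150 to 146 and 55 to 51 as printed. The Icam1 window held 1 match to GGAAATTCC at 153 to 145 bases before the start, 2 matches to CACCC at 116 to 112 and 89 to 85, and 1 Ets core at 56 to 52. Of 32851 windows of this length, 0.283% held GGAAATTCC, 50.6% held CACCC and 62.2% held GGAAG on either strand. TGANTCA, the form bound by AP-1, was in neither window and in 6.58% of all windows. The windows had a GC content of 55% for Cd44 and 64.2% for Icam1, against a median of 52.1%. A match is a stretch of letters and not a measured binding site.

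Selplg was highest in SP4 and its mean was higher in each subset than in the one before. Its intensities were 1248, 1148 and 1294 in SP1, 1388, 1030 and 1343 in SP2, 1594, 1741 and 1605 in SP3, and 1825, 2099 and 1900 in SP4. Every SP4 array lay above all arrays of the other subsets, and every SP3 array lay above those of SP1 and SP2, which overlapped each other. The means were 1230 ± 74.9, 1254 ± 195, 1647 ± 82.0 and 1941 ± 142 from SP1 to SP4 (SD, n = 3 arrays each). A mean that increases at every step was found for 6.33% of all probe sets.

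In SP4 vs SP1 the log2 fold change of Selplg was 0.65 ± 0.15 (SE, with a 95% confidence interval of 0.33 to 0.98), and it was higher in SP4 in 3 of 3 pairs of arrays with the same replicate number, by 0.54, 0.86 and 0.55. The adjusted p was 0.0731 in the limma fit without a replicate block, which misses the threshold of 0.05, and 0.0128 in the fit with the block. In SP4 vs SP2 the log2 fold change was 0.63 ± 0.15 (SE), with an adjusted p of 0.129 without the block and 0.025 with it. When 1 array was left out of the blocked fit, the call held in 9 of 12 fits for SP4 vs SP1 (adjusted p of 0.00121 to 0.0773) and was lost without replicate 1 or 2 of SP1 or replicate 2 of SP4. It held in 7 of 12 fits for SP4 vs SP2 (0.0335 to 0.131) and was lost without replicate 1 of SP1, replicate 2 or 3 of SP2, or replicate 2 or 3 of SP4. Between SP4 and SP3 the value was 0.23 with an interval of -0.09 to 0.56 and an adjusted p of 1 by limma, although the arrays did not overlap. In SP3 vs SP1 it was 0.42 (0.09 to 0.74) and in SP3 vs SP2 0.40, also with an adjusted p of 1 in each. SP2 and SP1 were apart by 0.02, and the interval of -0.31 to 0.34 leaves room for a difference of either sign. In bulk RNA such as this, fewer cells of a type and less RNA per cell cannot be told apart.

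**Figure D1:**
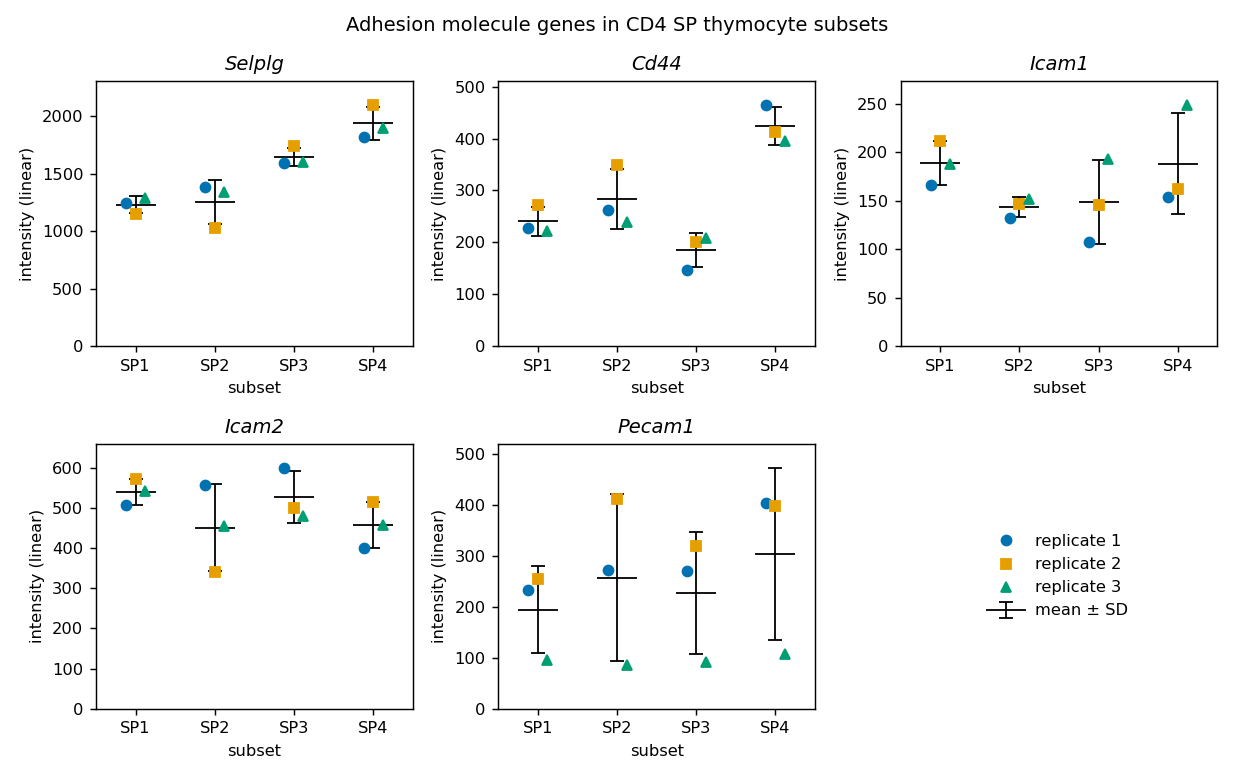
Linear probe set intensity of the 5 genes on each of the 12 arrays, by subset from SP1 to SP4, each gene by its brightest probe set; markers are arrays by replicate number, and bars are the mean and SD of 3 arrays. Selplg and Cd44 had all SP4 arrays above those of the other subsets, Icam1 and Icam2 changed order between arrays, and Pecam1 was lowest in replicate 3 of every subset.

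Cd44 had its highest level in SP4 and its lowest in SP3. By its main probe set the intensities were 227, 273 and 222 in SP1, 262, 349 and 238 in SP2, 147, 201 and 208 in SP3, and 464, 413 and 395 in SP4. All SP4 arrays lay above the arrays of the other subsets, all SP3 arrays lay below them, and SP1 and SP2 overlapped. The means were 240.7 ± 27.8, 283.2 ± 58.4, 185.4 ± 33.4 and 424.3 ± 36.0 from SP1 to SP4 (SD, n = 3 arrays each). Means that go up, down and up again over the 3 steps were found for 21.3% of all probe sets.

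Cd44 rose in SP4 vs SP3, with a log2 fold change of 1.14 ± 0.19 (SE, interval 0.72 to 1.56) and an adjusted p of 0.0484 by limma. It was higher in 3 of 3 pairs, by 1.56, 0.99 and 0.87. This was the 1 call among the 5 genes without the block, in a comparison where 0.149% of all probe sets and 0.214% of all genes were called higher. The call was lost when any 1 of the 12 arrays was left out, at adjusted p-values of 0.0511 to 0.283. With the replicate block the adjusted p was 0.00279, and there the call held in 12 of 12 fits that left out 1 array, at 0.00111 to 0.0316.

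In SP4 vs SP1 the log2 fold change of Cd44 was 0.78 ± 0.19 (SE, interval 0.36 to 1.20), at 0.98, 0.57 and 0.79 in the 3 pairs. The adjusted p by limma was 0.102 without the block and 0.00812 with it. In SP4 vs SP2 the value was 0.57 (0.15 to 0.99), at an adjusted p of 0.458 without the block and 0.071 with it. By this main probe set the difference passed in neither fit, while by the second, given below, it passed with the block. SP3 was lower than SP2 by a log2 value of -0.57 (interval -0.99 to -0.15) and lower than SP1 by -0.36 (-0.78 to 0.06), each with an adjusted p of 1 without the block and without overlap of the arrays. These differences missed the threshold with the block too, at adjusted p-values of 0.192 and 0.523.

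The other probe sets of Cd44 placed SP4 highest and SP3 lowest by their means as well, except for one at the floor. RefSeq lists 6 curated transcripts of Cd44, and which of them a probe set detects was not worked out here. By the second probe set the intensities were 168, 257 and 235 in SP1, 202, 212 and 258 in SP2, 126, 205 and 232 in SP3, and 318, 397 and 358 in SP4. The SP4 arrays again lay above all the others, while those of SP1, SP2 and SP3 overlapped. The log2 fold change in SP4 vs SP3 was 0.91 ± 0.23 (SE), with an adjusted p of 0.341 without the block and 0.00778 with it. In SP4 vs SP1 it was 0.68, with 0.339 without the block and 0.0133 with it. In SP4 vs SP2 it was 0.64, with 0.549 without the block and 0.0304 with it.

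The third probe set split by replicate number. Its intensities were 70.1, 80.3 and 18.0 in SP1, 75.8, 96.4 and 23.2 in SP2, 50.01, 45.4 and 13.2 in SP3, and 155, 117 and 33.7 in SP4. Replicate 3 was the lowest array of every subset, and within each replicate SP4 was the highest array and SP3 the lowest. The log2 fold change in SP4 vs SP3 was 1.09, with an SE of 0.56 and an adjusted p of 1 without the block. With the block the SE was 0.14 and the adjusted p 0.00237. The blocked fit also gave an adjusted p of 0.0132 in SP4 vs SP1 and 0.0953 in SP4 vs SP2. The fourth probe set had 4.98 to 6.41 on all arrays, at percentile 10.5 of the table, and gives no level. Over the 12 arrays, the main probe set correlated with the second at r = 0.83 and with the third at r = 0.59, and at 0.91 and 0.97 once the mean of each replicate number was taken out. These are descriptions over arrays that share replicate numbers.

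**Figure D2:**
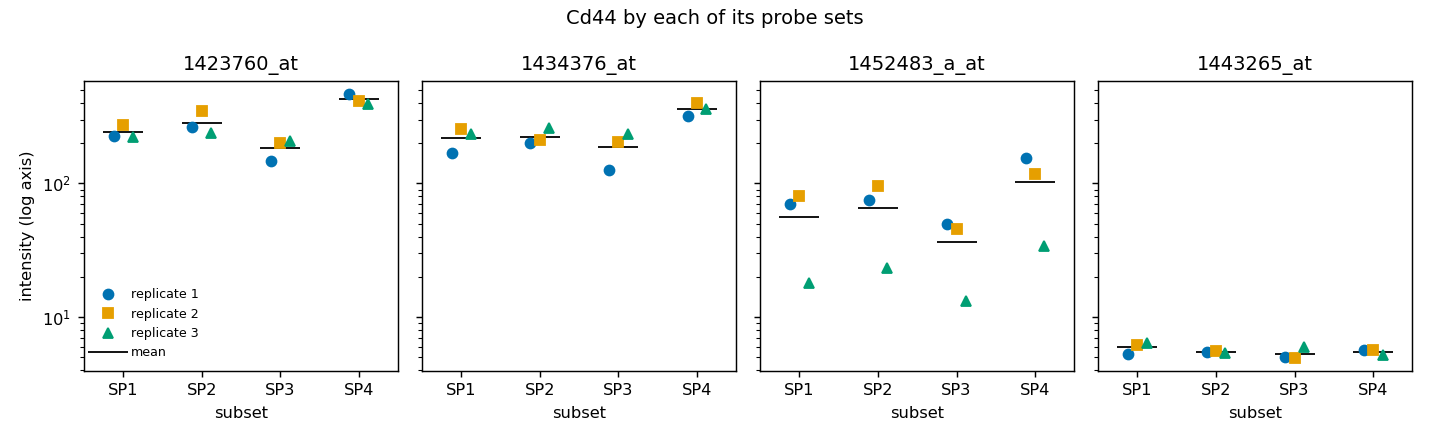
Intensity, on a log axis, of the 4 probe sets of Cd44 (from left to right the main, the second, the third and the fourth) on each of the 12 arrays, by subset from SP1 to SP4; markers are arrays by replicate number and lines the mean of 3 arrays. SP4 was highest by the 3 probe sets above the floor, the replicate 3 arrays of the third lay below the others of their subset, and the fourth stayed between 4.98 and 6.41.

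Markers of other cells also differed between the subsets, and lists of 4 cell types had higher sums in SP4 than in SP3 within every replicate, as Cd44 had. The 19 measured genes of activated or memory T cells summed to 4257 to 6121 in SP1 and 2969 to 4710 in SP2. In SP3 they summed to 5938 to 6267 and in SP4 to 6590 to 9775. In SP4 vs SP3, 4 of them were called higher and 0 lower without the block, against 0.214% and 0.011% of all genes. The 11 measured genes of NKT and innate-like T cells summed to 312.1 to 1849, 319.9 to 803.4, 1228 to 1463 and 2108 to 2961 from SP1 to SP4, and the 13 of myeloid and dendritic cells to 322.6 to 1050, 325.2 to 511.3, 471.6 to 540.9 and 983.7 to 1740. These 3 lists had no lower sums in SP3 than in SP2 within any replicate, where Cd44 was lower in SP3. Without the block 3 of the 11 NKT and innate-like genes were called higher in SP4 vs SP3 and 0 lower. For the 13 myeloid and dendritic genes it was 1 and 0.

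The 8 measured genes of regulatory T cells summed to 3477 to 5960 in SP1, 4288 to 7308 in SP2, 2333 to 3741 in SP3 and 3168 to 5776 in SP4, and SP3 was the lowest array of each replicate, as it was for Cd44. Their median log2 fold change in SP4 vs SP3 was 0.52 against -0.02 for all genes. Without the block 0 of the 8 were called and 4 had an unadjusted p under 0.05. With the block, where 0.897% of all probe sets were called higher, 2 passed. These were Foxp3 (adjusted p = 0.00828) and Ctla4 (0.0119), named after their values were seen. Ikzf2, Il2ra, Tnfrsf18, Tnfrsf4 and Izumo1r had their lowest mean in SP3, while Foxp3, Ctla4 and Nrp1 did not. The means from SP1 to SP4 were 20.4, 30.7, 39.3 and 89.1 for Foxp3 and 309.6, 375.8, 349.4 and 784.1 for Ctla4. The 11 measured genes of cortical double positive thymocytes summed to 7436 to 13860, 6471 to 8824, 7901 to 19450 and 4958 to 8414 from SP1 to SP4. SP3 was the highest array of each replicate by this sum, where Cd44 was lowest. SP1 was close behind in replicates 2 and 3, at 13860 against 14250 and 7436 against 7901. In replicate 1 it had 13410 against 19450. By their means Cd1d1 and Satb1 were not highest in SP3, while the others were. Cd8a had 634.6 ± 526, 129.8 ± 125, 937.8 ± 879 and 207.2 ± 174 (SD, n = 3 arrays each). Cd8b1 had 1067 ± 648, 301.4 ± 155, 1813 ± 1170 and 565.1 ± 185, although CD8+ cells were depleted. In SP4 vs SP3 0 of the 11 were called without the block, and with it Cd8a was lower (adjusted p = 0.0451). No marker was listed at 0, and the part of these genes in the levels of Cd44 or Selplg was not tested.

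Icam1 had close means in SP4 and SP1 and lower ones in SP2 and SP3. The intensities were 166, 212 and 188 in SP1, 132, 147 and 152 in SP2, 107, 146 and 193 in SP3, and 154, 163 and 249 in SP4. The SP4 and SP1 arrays each lay above all SP2 arrays, and SP3 overlapped with every other subset. The means were 188.7 ± 22.7, 143.7 ± 10.5, 148.7 ± 43.0 and 188.5 ± 52.5 (SD, n = 3 arrays each). In SP4 vs SP2 the log2 fold change was 0.33 (interval -0.16 to 0.82) with an adjusted p of 0.987 by limma, and in SP2 vs SP1 it was -0.35 (-0.84 to 0.14) with an adjusted p of 1. SP4 and SP1 were apart by -0.03, and the interval of -0.52 to 0.47 leaves room for a difference of either sign. None of the 6 comparisons of Icam1 passed the test in either fit.

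Icam2 overlapped between all pairs of subsets. Its intensities were 507, 572 and 542 in SP1, 556, 341 and 455 in SP2, 600, 500 and 479 in SP3, and 400, 515 and 458 in SP4. The lowest array was replicate 2 of SP2 and the highest was replicate 1 of SP3, and the means were 540.3 ± 33.0, 451 ± 108, 526.3 ± 64.5 and 457.6 ± 57.5 (SD, n = 3 arrays each). SP4 was lower than SP1 in 3 of 3 pairs, with a log2 fold change of -0.24 (interval -0.66 to 0.19) and an adjusted p of 0.962 by limma. No comparison of Icam2 passed the test in either fit. Icam2 and Pecam1 lie near each other on chromosome 11, with 6 annotated genes between them, of which 2 code for proteins.

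Pecam1 varied more between replicate numbers than between subsets. The intensities were 234, 255 and 96.5 in SP1, 273, 413 and 87.0 in SP2, 272, 320 and 92.4 in SP3, and 404, 399 and 108 in SP4. The 4 arrays of replicate 3 lay below all 8 others, and within replicates 1 and 3 SP4 was the highest array. Averaged over the subsets, replicates 1, 2 and 3 had 295.9, 346.7 and 96.07, so that replicates 1 and 2 stood 3.08 and 3.61 times above replicate 3. Of 13737 probe sets with a mean intensity over 100, 2.3% had replicates 1 and 2 each at least 3 times above replicate 3, and 0.692% lay as far the other way. The third probe set of Cd44 had ratios of 3.98 and 3.85, and the part of the replicate number in either was not tested.

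In SP4 vs SP1 the log2 fold change of Pecam1 was 0.50 with an SE of 0.64 (interval -0.90 to 1.91) and an adjusted p of 1 by limma. It was above 0 in 3 of 3 pairs, at 0.75, 0.62 and 0.15. With the block the adjusted p was 0.08, which misses the threshold, and 2 of 12 fits with 1 array left out passed it. In SP4 vs SP3 the pairs were at 0.55, 0.31 and 0.20, with an adjusted p of 0.411 with the block. Among the 14 genes of an endothelial list, where PECAM-1 is abundant, Eng alone had a mean over 100, and the list summed to 416.6 to 462.9 in SP4 and 426.5 to 484.5 in SP1. In SP4 vs SP1 0 of the 14 were called without the block. With the block, where 4.16% of all genes were called higher, 1 passed. This was Cdh5, which had 16.9 in SP1, below the array medians, and 45.4 in SP4 (adjusted p = 0.00599). Of 9 measured platelet and megakaryocyte genes only Itgb3 had a mean over 100.

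**Figure D3:**
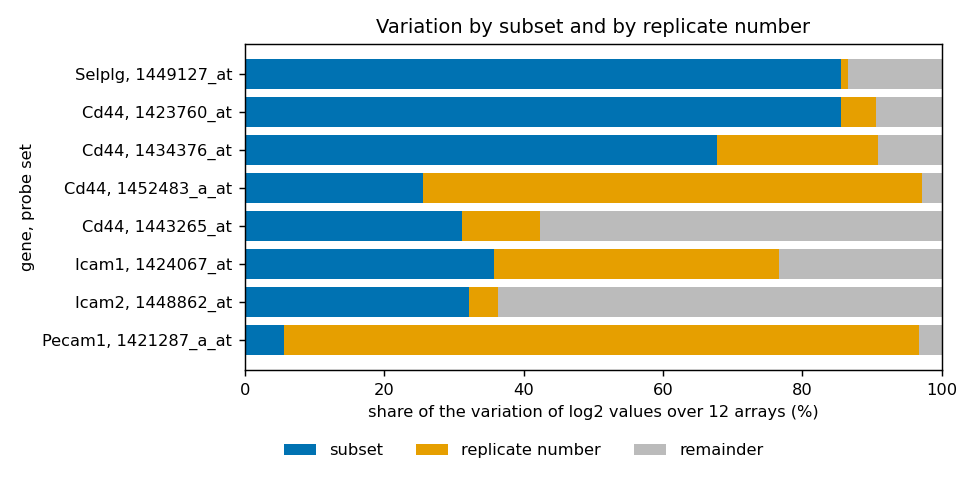
Share (%) of the variation of each probe set over the 12 arrays that went with the subset, with the replicate number and with neither. The subset took 85.5% for Selplg and for the main probe set of Cd44, and the replicate number took 91.2% for Pecam1 and 71.5% for the third probe set of Cd44.

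The share of variation over the 12 arrays set the genes apart. The subset took 85.5% for Selplg and 85.5% for Cd44 by its main probe set, and the replicate number took 1.06% and 5.09% of the variation of these probe sets. For Pecam1 the subset took 5.56% and the replicate number 91.2%. Icam1 had 35.8% and 40.8%, and Icam2 had 32.1% and 4.28%, with 63.7% in neither. The medians over probe sets with a mean intensity over 100 were 17.2% for the subset and 52.1% for the replicate number. Any grouping of 12 arrays takes some share, so these shares are descriptions. An F test over the 4 subsets by limma gave an adjusted p of 0.08 for Cd44 and 0.176 for Selplg without the block. There 0.582% of all probe sets were called. With the block it gave 0.00404 and 0.0288, where 3.7% were called. Icam1, Icam2 and Pecam1 passed the F test in neither fit, at 0.338, 0.674 and 0.279 with the block.

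**Figure D4:**
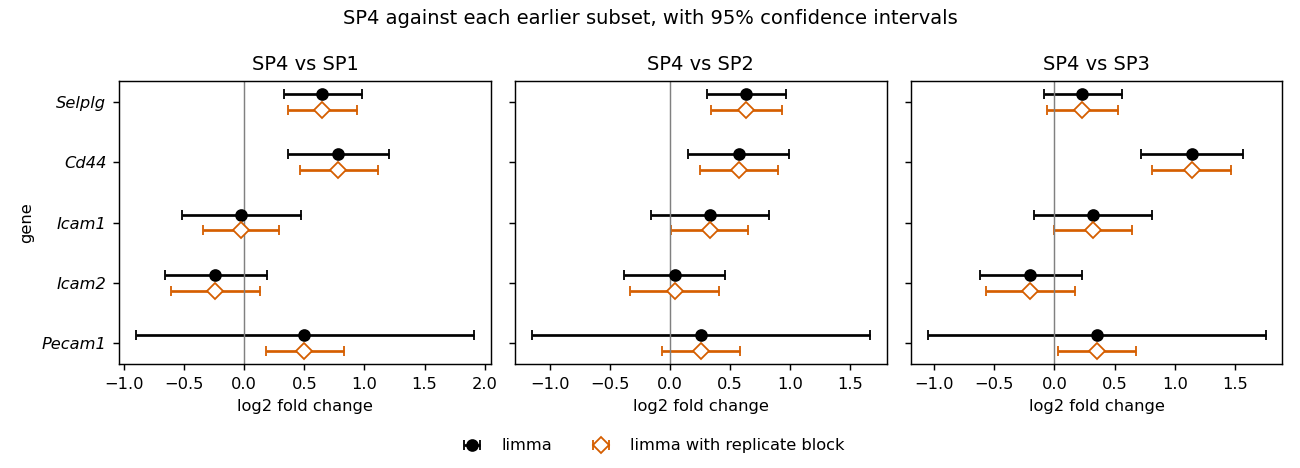
Log2 fold change of SP4 over SP1, SP2 and SP3 for each gene, with 95% confidence intervals from the limma fits without and with the replicate block. The interval of Cd44 against SP3 ran between 0.72 and 1.56 without the block, and that of Pecam1 against SP1 between -0.90 and 1.91.

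Over the 5 genes, SP4 arrays lay wholly above SP1 arrays for 2 genes, Selplg and Cd44, against 6.29% of all probe sets, and above SP2 arrays for 3, with Icam1 added, against 4.41%. They lay above SP3 arrays for 2, against 3.92%. SP3 arrays lay wholly above SP1 arrays for Selplg (3.89% of all probe sets) and wholly below for Cd44 (3.3%). They lay above SP2 arrays for Selplg (2.91%) and below them for Cd44 (3.52%). SP2 arrays lay wholly below SP1 arrays for Icam1, against 2.57%. With the block, 2 of the 5 genes passed in SP4 vs SP1, where 3.39% of all probe sets and 4.16% of all genes were called higher. In SP4 vs SP2 1 passed (1.84% of all probe sets) and in SP4 vs SP3 1 (0.897%). Without the block 0 passed in SP4 vs SP1, where 0.862% of all probe sets and 1.22% of all genes were called higher, and 0 in SP4 vs SP2 (0.477% of all probe sets). The shares of genes read each gene by 1 probe set, as the members were read, and those of probe sets count all. In SP3 vs SP1, SP3 vs SP2 and SP2 vs SP1 none of the 5 passed in either fit, where 0.0111%, 0% and 0% of all probe sets were called without the block and 0.329%, 0.22% and 0.00888% with it. At an unadjusted p under 0.05, 2 of the 5 passed in SP4 vs SP1, against 7.81% of all probe sets, 2 in SP4 vs SP2 (6.41%), 1 in SP4 vs SP3 (4.76%), 1 in SP3 vs SP1 (3%), 2 in SP3 vs SP2 (3.02%) and 0 in SP2 vs SP1 (2.75%).

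The partners of these molecules were read from 5 lists of genes. In SP4 vs SP1, 1.22% of all genes were called higher and 0.297% lower by limma without the block, and in SP4 vs SP3 0.214% and 0.011%. Of 21 genes of selectin ligand synthesis and other sialomucins, 1 was higher in SP4 vs SP1 and 0 lower, with a median log2 fold change of 0.07 against -0.01 for all genes. The called gene was Gcnt1, an enzyme that builds the branched core of O-linked sugars, with a mean of 33.9 ± 13.0 in SP4 and 11.6 ± 1.83 in SP1 (SD, n = 3), a log2 fold change of 0.82 ± 0.16 (SE) and an adjusted p of 0.0367. It was also called in SP4 vs SP3, at 0.98 and 0.0469. The means of Gcnt1 in SP1, SP2 and SP3, 8.7 to 11.6, lay below the array medians. With the block, where 4.16% of all genes were called higher, 4 genes of the list passed in SP4 vs SP1, the others being Spn, the sialomucin CD43, at 0.91, B4galt1, a galactosyltransferase, at 0.67 and Tpst2, a tyrosine sulfotransferase, at 0.62, all named after their values were seen.

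Among 15 measured genes of hyaluronan enzymes and CD44 ligands and linkers 0 were called without the block, and 2 had an unadjusted p under 0.05. The 2 of largest fold were Cd74, a partner of CD44 in signalling, at -0.37 ± 0.75, and Msn, the linker moesin, at 0.32 ± 0.20 (SE). The median was 0.00. With the block 1 gene passed, Has3, whose means of 7.11 to 10.02 lay below the array medians. A list of 15 genes held Icam4, Icam5, Vcam1, 4 chains of the integrins that bind ICAMs and 8 genes of integrin activation such as Tln1 and Rap1a. Of these 0 were called and 2 had an unadjusted p under 0.05, with a median of 0.02. Fyb, an adaptor that links the T cell receptor to LFA-1, was at 0.58 ± 0.14 with an adjusted p of 0.11 without the block and 0.0088 with it, and Itgax was at 0.31 ± 0.25. Fyb and Itgam passed with the block, and the means of Itgam, 9.48 to 14.8, lay below the array medians. The LFA-1 chains had means of 2982, 3530, 2508 and 2762 for Itgal and 2975, 4055, 2565 and 2757 for Itgb2 from SP1 to SP4, and log2 fold changes of -0.12 and -0.13 in SP4 vs SP1 that did not pass.

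Of 13 measured genes of junctional adhesion, transmigration and the phosphatases that bind PECAM-1, 0 were called and 3 had an unadjusted p under 0.05. Cdh5, the cadherin of endothelium, had a mean of 45.4 ± 21.2 in SP4 and 16.9 ± 2.77 in SP1. Its means in SP1, SP2 and SP3, 16.9 to 23.7, lay below the array medians. The log2 fold change was 0.85 ± 0.19 (SE), with an adjusted p of 0.0738 without the block and 0.00599 with it. Cd96, a receptor for nectin-type ligands, was at 0.60 ± 0.23 with an adjusted p of 0.47 without the block and 0.0215 with it. Of 24 other T cell adhesion genes, 1 was higher and 3 lower in SP4 vs SP1, with a median of 0.00. With the block 5 were higher and 3 lower, and the 4 that the block added were Cd9, a tetraspanin, L1cam, Cd48 and Crtam, named after their values were seen. Chl1, a cell adhesion molecule of the L1 family, had 41.1 in SP4 and 262.8 in SP1, at -2.22 ± 0.28 and an adjusted p of 0.00302. Cdh1, E-cadherin, had 78.2 in SP4 and 17.1 in SP1, at 1.55 ± 0.22 and 0.00588. Its means in SP1, SP2 and SP3, 12.7 to 20.2, lay below the array medians. Cd81, a tetraspanin, had 516.8 in SP4 and 1072 in SP1, at -1.06 ± 0.20 and 0.0281, and Mcam, or CD146, was at -0.41 with 0.0297. The means of Mcam, 15.1 to 26.0, lay below the array medians in every subset.

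The genes with levels most like each member over the 12 arrays were sought among 7178 genes with a mean intensity over 100. For Selplg these were Cdipt (r = 0.97), Ctsw (0.95) and Fam189b (0.94). For Cd44 they were Mdn1 (0.88), Il2rb (0.88) and Ttc27 (0.87), and for Icam1 Fastkd2 (0.84), Fam126b (0.82) and Ltv1 (0.81). For Icam2 they were Ssna1 (0.94), Tomm22 (0.94) and Atp5h (0.93), and for Pecam1 Txk (0.99), Cflar (0.99) and Arhgap15 (0.99). With the mean of each replicate number taken out, Selplg was most like Cdipt (0.99), Cd44 like Arid5b (0.97), Icam1 like Zc3h12a (0.89), Icam2 like Emg1 (0.98) and Pecam1 like Herc1 (0.98). These are descriptions over arrays that share replicate numbers, and Selplg and Cd44 themselves correlated at 0.27.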

How the data were processed

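The authors deposited 1 table of linear intensity values for the 12 arrays, with background already corrected and arrays already scaled to each other. RMA is named in the methods and MAS5 in the processing notes, each with its version not stated. Of 45037 probe sets, 34945 name 1 gene, 932 several and 9160 none. After adding an offset of 16, log2 values of all 12 arrays were fitted with limma 3.58.1 (R 4.3.3), with 1 mean per subset (8 residual degrees of freedom) and eBayes with a trend. Each of 6 comparisons had its p-values adjusted (Benjamini-Hochberg) across the whole table, and a gene was called at an adjusted p under 0.05. SAM, the test the methods name, was not run. Confidence intervals are at 95% and are not adjusted, and 3 arrays per subset limit the precision.

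Replicate numbers come from the labels. Deviations of same-numbered arrays from their subset means correlated at 0.279 to 0.883 over 18 pairs, so a fit with the number as a block (6 residual degrees of freedom) was set beside the other. Different numbers correlated at -0.812 to 0.729. Arrays of replicate 3 correlated with those of 1 at -0.812 to -0.595 and with those of 2 at -0.755 to -0.388. Replicates 1 and 2 correlated with each other at 0.178 to 0.729, against 0.407 to 0.782 within 1 and 0.279 to 0.65 within 2. These values set replicate 3 apart and do not tell 1 and 2 apart. Members and lists were chosen with earlier results of these data known. The rule for names was all 5 members, up to 4 called genes of largest fold per list in SP4 vs SP1 (2 where none was called) and the 3 genes most like each member. Motifs were counted in Python 3.11.15. The fit without the block was tested on simulated data. These had independent noise on each array and no replicate effect, so that test does not cover the replicate pattern seen here. No pair of arrays held identical values. Alternatives changed the offset, normalization, filter, trend, probe set, arrays and block.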

Additional observations from a re-analysis of the deposited data

How the results depend on the processing

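The count of member genes called without the block was 0 in SP4 vs SP1, 0 in SP4 vs SP2, 1 in SP4 vs SP3 (Cd44) and 0 for any difference among the subsets. With the replicate block it was 2 in SP4 vs SP1, 1 in SP4 vs SP2 and 2 for any difference, and the block changed no other call. The SP4 vs SP3 count was 0 with an offset of 1, with quantile normalization repeated, with a mean intensity over 50 required, with the mean of all probe sets of a gene, with only the arrays of SP4 and SP3, and with Cd44 read by its second probe set. It was 0 to 0 when 1 array was left out, with adjusted p-values for Cd44 of 0.0511 to 0.283. The SP4 vs SP1 count was 1, for Selplg, with quantile normalization repeated, with the filter at 50 and without the mean-variance trend, and 0 to 1 with 1 array left out, where Selplg passed without replicate 2 of SP2 (adjusted p = 0.031). Without the trend the SP4 vs SP2 count was 1. The cause of these shifts was not tested.

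Reading Cd44 by its second probe set, using the arrays of replicates 1 and 2 alone, and leaving out arrays within the blocked fit were chosen after seeing the data. With replicates 1 and 2 alone, values changed sign to 0.02 for Icam2 in SP3 vs SP1, -0.14 for Icam1 in SP3 vs SP2 and 0 (rounded) for Selplg in SP2 vs SP1. With 1 array left out, signs changed within -0.18 to 0.21 for Icam1 in SP3 vs SP2, -0.23 to 0.09 for Icam1 in SP4 vs SP1, -0.14 to 0.02 for Icam2 in SP3 vs SP1, -0.14 to 0.20 for Icam2 in SP4 vs SP2 and -0.06 to 0.15 for Selplg in SP2 vs SP1. Pecam1 ranged over -0.19 to 0.84 in SP2 vs SP1, -0.25 to 0.66 in SP3 vs SP1, -0.69 to 0.41 in SP3 vs SP2, -0.34 to 0.84 in SP4 vs SP2 and -0.16 to 0.93 in SP4 vs SP3. None of these values had passed the test. In the blocked fit with 1 array left out, Cd44 passed in SP4 vs SP1 in 12 of 12 fits, and Selplg in 9 of 12 in SP4 vs SP1 and 7 of 12 in SP4 vs SP2. With 3 arrays a subset, the probe set of Cd44 at the floor gave no level.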
